A study of Homo sapiens with 4 samples.

Results

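The genes described here are noncoding host genes of small nucleolar RNAs (snoRNAs). They are the genes with a symbol of the form SNHG followed by a number, for "small nucleolar RNA host gene", together with GAS5, ZFAS1, DANCR and EPB41L4A-AS1, and they were found by symbol in the table of counts. There were 32 such genes among 60708, and 23 of them had enough reads to be tested. The libraries were TT-seq libraries, in which RNA is labeled with 4-thiouridine (4-SU), here for 20 min, and the labeled RNA is enriched before sequencing, so that newly made transcripts dominate. All 4 libraries came from HEK293, a human embryonic kidney line, with a degron on endogenous RPB1, the largest subunit of RNA polymerase II. The cells had been transiently transfected with plasmid RPB1 carrying either a wild-type C-terminal domain (CTD) of 52 repeats (52X WT, 2 libraries) or the same CTD with the threonine at the fourth position of each repeat replaced by alanine (52X T4A, 2 libraries). Auxin, which triggers destruction of the degron-tagged protein, was given to every culture 48 h after transfection and kept on for 48 h. There was thus no library without auxin and none without a transfected RPB1. The RNA that was made depended on the share of cells that took up a plasmid, and fewer transcribing cells and less RNA per cell cannot be told apart in such bulk samples. The sources used here do not say whether the replicates were separate cultures, so the p-values measure only the spread between these libraries.

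snoRNAs are short RNAs of the nucleolus that guide the chemical modification of ribosomal and spliceosomal RNA. C/D box snoRNAs (symbols SNORD) guide methylation of the ribose, H/ACA box snoRNAs (SNORA) guide the conversion of uridine to pseudouridine, and their relatives in Cajal bodies (SCARNA) act mainly on spliceosomal RNA. In human cells most of them are cut from introns of RNA polymerase II transcripts after splicing. In a noncoding host the spliced exons often carry no conserved product of their own. Many hosts of snoRNAs, coding and noncoding, start transcription at a C inside a run of pyrimidines, the same kind of start that ribosomal protein genes use, and the spliced RNA of several of them, GAS5 among these, is degraded by nonsense-mediated decay when it is translated. TT-seq reads come from introns as well as exons, so the counts describe the whole host transcript rather than the spliced RNA.

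The stretches around the RefSeq start of 7 hosts are printed to show letters that some hosts hold more often than promoters at large, which their symbols did not select, beside hosts that lack them. Each holds 60 bases of GRCh38.p14, from 40 bases before the start to 20 bases from it on, read on the strand of the gene from 5′ to 3′. Capitals mark the word TATAA or TATATA where it lies between 40 and 15 bases before the start, and the run of C and T from the start on where the start is a C and the run is at least 4 letters long.
ZFAS1 (chr20:49278602-49278661, plus strand): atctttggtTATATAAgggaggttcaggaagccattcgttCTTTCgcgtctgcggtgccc
SNHG12 (chr1:28581854-28581913, minus strand): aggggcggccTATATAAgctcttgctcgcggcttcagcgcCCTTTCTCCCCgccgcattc
SNHG7 (chr9:136728165-136728224, minus strand): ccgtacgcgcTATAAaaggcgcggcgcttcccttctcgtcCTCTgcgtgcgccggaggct
SNHG19 (chr16:2155339-2155398, minus strand): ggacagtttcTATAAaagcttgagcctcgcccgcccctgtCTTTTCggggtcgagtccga
SNHG8 (chr4:118278722-118278781, plus strand): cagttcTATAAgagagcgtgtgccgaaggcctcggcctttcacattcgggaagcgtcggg
GAS5 (chr1:173869026-173869085, minus strand): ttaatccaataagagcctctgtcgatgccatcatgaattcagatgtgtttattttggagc
SNHG17 (chr20:38435309-38435368, minus strand): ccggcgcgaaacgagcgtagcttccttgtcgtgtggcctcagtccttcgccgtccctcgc

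RefSeq promoter windows were counted for 28 of the 32 hosts, with none counted for SNHG6, SNHG9, SNHG15 and SNHG25. Hosts on chromosome 8, where SNHG6 lies, were left out of this count, and no such exclusion was applied to the promoters at large. The word TATAA or TATATA lay in that stretch in 6 of the 28 (21.4%), against 4.65% of 27305 promoters, 1 for each symbol. A pyrimidine run at the start was found in 9 of the 28 hosts (32.1%) and in 5.45% of all promoters. Both occurred in 5 of the 28 hosts (17.9%), which were ZFAS1, SNHG12, SNHG7, SNHG19 and SNHG5, and in 0.165% of all promoters. Only the strand of the gene was searched, and overlapping matches of TATAA and TATATA counted once. Of the other printed hosts, SNHG8 had the TATA word alone, while GAS5 and SNHG17 had neither in these windows. The RefSeq start lies 464 bases inside the span listed for ZFAS1, 1259 bases inside that of SNHG12 and 163 bases outside that of GAS5. A match of letters is a description of the sequence, and use of these starts was not measured.

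The library totals were 39249066 and 45605027 counts for 52X WT replicates 1 and 2 and 33853507 and 33188536 for 52X T4A replicates 1 and 2. The correlation of log2 levels was 0.991 for the pair of 52X WT libraries and 0.979 for the 52X T4A pair, and 52X T4A replicate 1 was the library farthest from the other 3 in several results below. Levels are given as CPM, counts scaled to the library size and by the trimmed mean of M-values (TMM). POLR2A, which encodes RPB1, had 9640, 8720, 7492 and 8083 CPM in that order of libraries. Those reads come from the endogenous gene and from the plasmids alike and the degron acts on the protein, so they do not check the labels. Of the markers of HEK293, VIM, NEFL and KRT18 had 624 to 3376 counts in a library, LHX1 and PAX2 had 80 to 152, and NEFM had 0 to 6. Among markers of leukocytes, hepatocytes and fibroblasts, COL1A1 reached 102 counts and none of the others more than 38.

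Of the 32 hosts, 4 had no reads and 5 more had too few to be tested, and most of these lay under other genes. In 7 hosts more than 80% of the listed span lay under another gene of the same strand, and none of the 7 was tested. DANCR, known for holding progenitor cells in an undifferentiated state and host of SNORA26, lay under LINC01618 over 99.4% of its span. It had 0, 0, 0 and 1 counts. SNHG5, host of SNORD50A and SNORD50B, was covered over 99.3% and had 4, 2, 0 and 0 counts. SNHG3 lay wholly within RCC1, SNHG4 wholly within MATR3 and SNHG28 wholly under other genes. These 3 hosts were listed at 0 in all libraries, and since reads over 2 genes of the same strand went uncounted, that says nothing of their transcription. SNHG32, which hosts SNORD48 and SNORD52, had 7 to 12 counts with 99.1% of its span covered, and SNHG20, host of SCARNA16, had 2 to 14 counts with 84.6% covered. For these 7 hosts the counts describe the uncovered remainder and not the gene. The other untested hosts were little covered. SNHG18 was listed at 0 with 1.59% of its span covered, and SNHG27 had 4, 2, 4 and 2 counts with 0.687% covered. Listed at 0, SNHG18 could have had up to 3 counts, which is 0.0894 CPM in the library where that limit is highest. The floor covers counting error only. Among the tested hosts, SNHG21, SNHG25 and SNHG9 were covered over 65.1%, 40.4% and 23.0% of their spans.

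**Figure D1:**
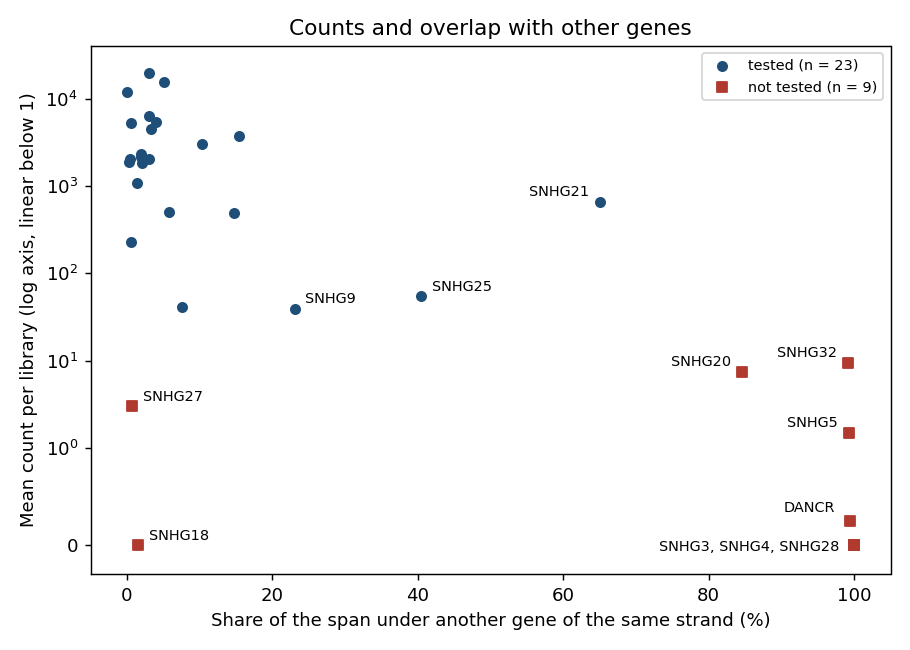
Mean count per library of each of the 32 hosts (vertical axis, logarithmic above 1) against the share of its span that lies under another gene of the same strand (horizontal axis, percent). The 7 hosts beyond 80% are all untested, with mean counts under 10, and the tested host with the highest share is SNHG21 at 65.1%.

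The snoRNAs themselves were not measured. The table held 143 snoRNA genes inside the spans of the hosts on the same strand, and all 143 were listed at 0 in all 4 libraries. By position, RefSeq places 148 snoRNA genes in the hosts, 83 of them in SNHG14 and 65 in the others, and 30 of the 32 hosts held at least 1. SNHG1 held 8 C/D box snoRNAs (SNORD22 and SNORD25 to SNORD31), SNHG17 held 4 H/ACA box snoRNAs of the SNORA71 family, SNHG12 held 4, and 15 hosts held exactly 1. GAS5 held 11 (10 C/D and 1 H/ACA box), none of which has a gene inside GAS5 in the table used here. GAS5-AS1, on the other strand of the same place, had 56, 37, 36 and 17 counts against 10665 to 12701 for GAS5.

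Levels differed widely between the hosts. To set hosts side by side, TMM CPM were divided by the length of the span in kb. By this measure SNHG15, host of SNORA9 (chr7:44983023-44986961), and GAS5, named for its accumulation in growth-arrested cells (chr1:173858559-173868882), were highest, both with a mean of 30.3 CPM per kb over the 4 libraries. SNHG15 ranged from 28.0 to 33.7 and GAS5 from 27.9 to 34.5, so their order is not settled. SNHG17 followed with a mean of 25.9, SNHG1 with 25.2, ZFAS1 with 24.5, SNHG19 with 22.8, SNHG16 with 21.9 and SNHG7 with 21.0 CPM per kb. The ranges over libraries of these neighbours overlapped at each step. Divided by the span without bases under another gene, SNHG1 stood at 29.8, above SNHG17 at 27.3 CPM per kb. By that length SNHG15 had 31.4 and GAS5, from which no bases were taken off, 30.3. SNHG21 rose from 2.62 to 7.52 CPM per kb. Below them stood SNHG12 with 17.7, SNHG6 with 13.0, EPB41L4A-AS1 with 12.6 and SNHG8 with 8.52 CPM per kb. The lowest of the tested hosts were SNHG31, SNHG22 and SNHG14, with 0.326, 0.162 and 0.0026 CPM per kb. These 3 have long spans of 153395, 37037 and 441754 bases. With the counts of the whole span divided by exonic length instead, SNHG31 came to 19.6 CPM per kb. By that division GAS5 and ZFAS1 stood at 63.4 and 63.2 CPM per kb and SNHG15 at 30.3. Since intronic reads are in the counts, these values are not exonic levels. The 5 tested hosts with a pyrimidine run at the start had a median of 21.0 CPM per kb of span, from 2.88 to 24.5. The 14 tested hosts with a counted promoter window and another start had a median of 4.02, from 0.0026 to 30.3. These 14 include the long SNHG31, SNHG22 and SNHG14, and SNHG15 had no counted window. Divided by exonic length, the 5 ran from 7.25 (SNHG26) to 63.2 (ZFAS1) CPM per kb. The 14 then ran from 0.0094 (SNHG14) to 63.4 (GAS5). The medians per kb of span thus also reflect span length, and a link between start and level was not tested.

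Not divided by length, the sum over all hosts was 2282 and 2240 CPM in the 52X WT libraries and 2671 and 2429 CPM in the 52X T4A libraries. ZFAS1, SNHG17 and GAS5 together held 50.9% to 53.9% of it, and the 10 highest hosts 84.9% to 86.4%. The sum was therefore set largely by a few hosts, and both 52X T4A sums lay above both 52X WT sums.

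**Figure D2:**
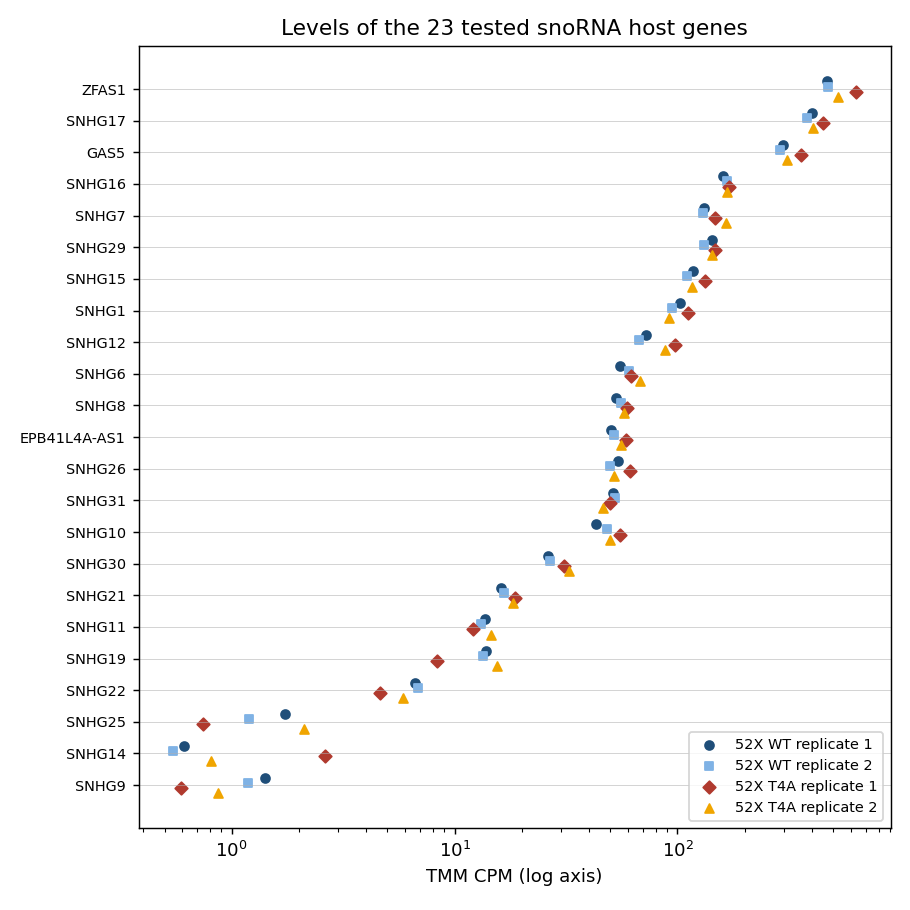
TMM CPM of the 23 tested hosts (horizontal axis, logarithmic) in each of the 4 libraries, with hosts ordered by mean level. ZFAS1, SNHG17 and GAS5 lie at the top with values from 288 to 634 CPM, and the libraries spread most in SNHG25, SNHG14 and SNHG9 at the bottom.

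The series has a single comparison, 52X T4A against 52X WT, and no host was called in it. The test was edgeR's quasi-likelihood test over 23321 genes with Benjamini-Hochberg adjustment, and a gene was called at an adjusted p below 0.05. Of all genes tested, 0.00429% were called higher in 52X T4A and 0% lower. The lowest adjusted p among the hosts was 0.187, that of SNHG12. At an unadjusted p below 0.05, 5 hosts were higher in 52X T4A (SNHG12, SNHG14, SNHG7, ZFAS1 and SNHG30) and 0 were lower, where 7.45% of all tested genes were higher and 8.02% lower. Of the 6399 tested lncRNA genes, 620 were higher and 216 lower at the same unadjusted threshold of edgeR. DESeq2 called 2 hosts higher, SNHG12 and ZFAS1, of the 19 hosts to which it gave an adjusted p, and it called 2.03% of 10329 genes higher. It called none of the hosts lower, against 6.36% of the same genes.

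Counted by whether the groups overlapped, 12 of the 23 tested hosts had both 52X T4A libraries above both 52X WT libraries, 3 had both below and 8 overlapped. Over all tested genes the shares were 24.8% above and 24.7% below, and over the 6399 tested lncRNA genes 33.1% above and 15.4% below. The median log2 fold change of the hosts was 0.13, that of all tested genes 0.00 and that of the tested lncRNA genes 0.16. The median of the hosts lay nearer to that of the lncRNA genes than to that of all genes. The 8895 tested genes with a mean count below 100 had a median of 0.25, with 2967 above and 996 below. The part of low counts in the median of the lncRNA genes was not tested. Scaled to library size without TMM, 15 hosts lay above and 3 below, and over all genes 30.9% lay above and 19.7% below. Library by library, the median log2 level of the hosts less the 52X WT mean was 0.02 and −0.02 in the 52X WT libraries, 0.18 in 52X T4A replicate 1 and 0.12 in 52X T4A replicate 2. The same medians over the tested lncRNA genes were 0.04, −0.04, 0.18 and 0.13.

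**Figure D3:**
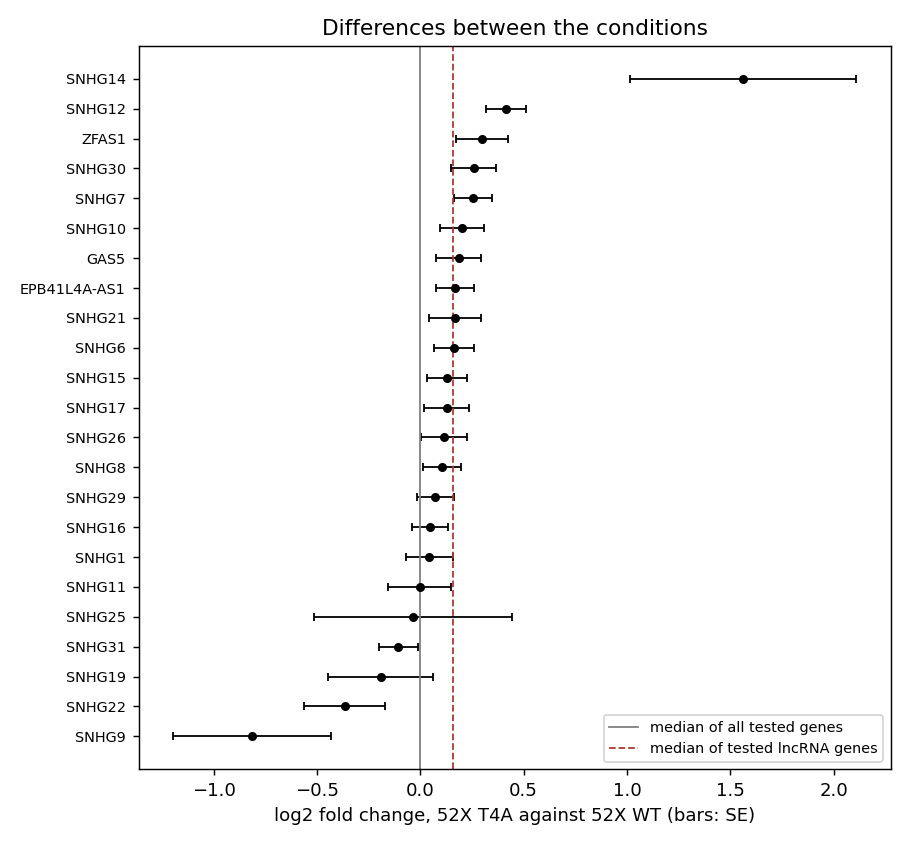
Log2 fold change of each of the 23 tested hosts in 52X T4A against 52X WT (horizontal axis), with its standard error as the bar and the medians of all tested genes and of the tested lncRNA genes as lines. Of the 23 values 17 lie above 0 and 6 below, most of them within 0.25 of 0, and the bars of SNHG14, SNHG25 and SNHG9 are the longest.

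The hosts are given by the kind of snoRNA they hold, C/D box hosts before the others. ZFAS1 starts beside the gene ZNFX1 on the opposite strand and hosts SNORD12, SNORD12B and SNORD12C (chr20:49278178-49299600). It had 469 and 473 CPM in 52X WT and 634 and 525 CPM in 52X T4A. Both 52X T4A values lay above both 52X WT values, with 52X T4A replicate 1 farther away. The log2 fold change was 0.30 (SE 0.13, n = 2 and 2, edgeR adjusted p = 0.310), and it was 0.17 without 52X T4A replicate 1 and 0.41 without 52X T4A replicate 2. ZNFX1, which encodes an antiviral helicase-like protein, had 62.1, 60.8, 66.9 and 59.4 CPM, and its groups overlapped.

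SNHG16, host of SNORD1A, SNORD1B and SNORD1C, had 159, 167, 170 and 167 CPM in the order of 52X WT replicates 1 and 2 and 52X T4A replicates 1 and 2. SNHG29, host of SNORD49A, SNORD49B and SNORD65, had 143, 132, 147 and 142 CPM. SNHG1, host of a run of C/D box snoRNAs that starts next to the amino acid transporter gene SLC3A2, had 103, 94.1, 112 and 91.3 CPM. In each of these 3 hosts the groups overlapped, and the log2 fold changes were 0.05, 0.07 and 0.04. SLC3A2, whose start is 51 bases from that of SNHG1, had 265, 242, 280 and 266 CPM.

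SNHG6, host of SNORD87, had 55.3 and 60.7 CPM in 52X WT and 62.1 and 67.9 CPM in 52X T4A, which did not overlap. SNHG30, host of SNORD7, had 26.3 and 26.7 CPM in 52X WT and 30.9 and 32.5 CPM in 52X T4A. The log2 fold change of SNHG30 was 0.26 (SE 0.11, n = 2 and 2, edgeR adjusted p = 0.310), and its 52X T4A libraries lay closer to each other than to either 52X WT library. SNHG26, host of SNORD93, had 54.1, 50.0, 61.1 and 51.7 CPM, and its groups overlapped.

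GAS5 and SNHG12, like the short host SNHG25, hold both kinds of snoRNA. GAS5 had 297 and 288 CPM in 52X WT and 357 and 308 CPM in 52X T4A, so the groups did not overlap, and 52X T4A replicate 2 lay near the 52X WT values. Its log2 fold change was 0.19 (SE 0.11, n = 2 and 2, edgeR adjusted p = 0.431), and it was 0.085 without 52X T4A replicate 1 and 0.27 without 52X T4A replicate 2. ZBTB37, a zinc finger gene that starts on the other strand inside the listed span of GAS5, had 18.7, 16.3, 16.3 and 15.4 CPM.

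SNHG12, host of SNORD99, SNORA16A, SNORA44 and SNORA61 (chr1:28578538-28583132, minus strand), had 72.1 and 67.1 CPM in 52X WT and 98.0 and 87.5 CPM in 52X T4A. Both 52X T4A libraries lay above both 52X WT libraries, and the gap between the groups was wider than the spread within either. The log2 fold change was 0.41 (SE 0.10, n = 2 and 2, edgeR adjusted p = 0.187). Without 52X T4A replicate 1 it was 0.34, and without 52X T4A replicate 2 it was 0.48. SNHG12 had the largest log2 fold change of the hosts with a mean count of at least 50.

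Among the hosts of H/ACA box snoRNAs, SNHG17 had 403 and 379 CPM in 52X WT and 448 and 406 CPM in 52X T4A. The groups did not overlap, but 52X T4A replicate 2 exceeded the higher 52X WT library by less than the 52X WT libraries differed. SNHG7, host of SNORA17A and SNORA17B (chr9:136721366-136728184, minus strand), had 131 and 130 CPM in 52X WT and 147 and 164 CPM in 52X T4A. Its log2 fold change was 0.25 (SE 0.09, n = 2 and 2, edgeR adjusted p = 0.270), and it was 0.34 without 52X T4A replicate 1 and 0.16 without 52X T4A replicate 2. In SNHG7 it was 52X T4A replicate 2 that lay farther from the 52X WT libraries.

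SNHG15 had 118, 110, 133 and 117 CPM, with overlapping groups. EPB41L4A-AS1, an antisense transcript that hosts SNORA13, had 50.1 and 52.1 CPM in 52X WT and 58.8 and 56.1 CPM in 52X T4A. Its groups did not overlap, and its log2 fold change was 0.17 (SE 0.09, n = 2 and 2, edgeR adjusted p = 0.403). SNHG8, host of SNORA24, had 53.0, 55.6, 59.3 and 57.4 CPM, again without overlap, and SNHG11 had 13.7, 13.2, 12.1 and 14.6 CPM, with overlap. SNHG31, host of SNORA70I, was with SNHG22 and SNHG9 one of the 3 hosts with both 52X T4A libraries below. It had 51.2 and 52.4 CPM in 52X WT and 50.0 and 46.4 CPM in 52X T4A. BARD1, the partner of BRCA1, starts 498 bases away on the other strand and had 172 and 181 CPM in 52X WT and 165 and 156 CPM in 52X T4A, also without overlap.

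The hosts of Cajal body RNAs did not move alike. SNHG10, host of SCARNA13, had 43.0 and 48.1 CPM in 52X WT and 55.2 and 49.6 CPM in 52X T4A, and SNHG21, host of SCARNA15, had 16.1 and 16.7 against 18.6 and 18.3 CPM. In both, the 52X T4A libraries were the higher ones. SNHG22, host of SCARNA17, had 6.67 and 6.85 CPM in 52X WT and 4.65 and 5.84 CPM in 52X T4A. Both 52X T4A values of SNHG22 lay below both 52X WT values, and the log2 fold change was −0.37 (SE 0.19, n = 2 and 2, edgeR adjusted p = 0.396). It was −0.20 without 52X T4A replicate 1 and −0.56 without 52X T4A replicate 2. By kind of snoRNA held, the median log2 fold change was 0.12 over 9 hosts of C/D box snoRNAs only, 0.12 over 8 hosts of H/ACA box snoRNAs only, 0.19 over 3 hosts of both and 0.17 over 3 hosts of Cajal body RNAs.

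Some hosts had values that turned on 52X T4A replicate 1. SNHG14, an imprinted transcript that carries the SNORD115 and SNORD116 clusters and runs antisense to UBE3A (chr15:24978583-25420336), was singled out after its values were seen, since its mean count of 41 is low. It had 24 and 24 counts in the 52X WT libraries, 88 in 52X T4A replicate 1 and 28 in 52X T4A replicate 2. The log2 fold change was 1.56 (SE 0.55, n = 2 and 2, edgeR adjusted p = 0.260), with 0.49 left when 52X T4A replicate 1 was omitted. The 8895 tested genes with a mean count below 100 had a median log2 level less the 52X WT mean of 0.28 in 52X T4A replicate 1 and 0.22 in 52X T4A replicate 2, against 2.08 and 0.45 for SNHG14.

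The 3 tested hosts with a span of 1000 bp or less went the other way in 52X T4A replicate 1. SNHG19, host of SNORD60 (chr16:2154797-2155358), had 13.8 and 13.5 CPM in 52X WT, 8.37 CPM in 52X T4A replicate 1 and 15.5 CPM in 52X T4A replicate 2. SNHG9, host of SNORA78 (chr16:1964959-1965509), had 1.41, 1.18, 0.596 and 0.868 CPM, and SNHG25, host of SNORD104 and SNORA50C on chromosome 17, had 1.74, 1.20, 0.745 and 2.11 CPM. In all 3, 52X T4A replicate 1 was the lowest library, while 52X T4A replicate 2 was the highest library in SNHG19 and SNHG25. Relative to the 52X WT mean, the median log2 level of the 3 was −0.91 in 52X T4A replicate 1 and 0.19 in 52X T4A replicate 2. Over the 940 tested genes of such a span it was −0.08 and 0.08.

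The neighbours of SNHG19 and SNHG9 on the other strand were also lowest in 52X T4A replicate 1, though the order of their other libraries differed. RPS2, a ribosomal protein gene that starts 118 bases from SNHG9, had 146, 137, 58.0 and 156 CPM, and TRAF7, a ubiquitin ligase gene that starts 340 bases from SNHG19, had 19.8, 13.6, 5.60 and 13.8 CPM. RPS2 was highest in 52X T4A replicate 2 and TRAF7 in 52X WT replicate 1. In all, 11 hosts had a gene that starts within 1 kb on the other strand, and edgeR called none of these neighbours. The 55 tested genes of chromosome 16 between 1.5 and 2.5 Mb, a stretch picked after these values were seen, had a median log2 level less the 52X WT mean of −0.68 in 52X T4A replicate 1 and 0.03 in 52X T4A replicate 2. The part of this stretch, of short span or of the library in the values of SNHG19 and SNHG9 was not tested. Over the 20 tested hosts with a span above 1000 bp, a division made after the values were seen, the median log2 fold change was 0.15, against 0.13 over all 23.

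**Figure D4:**
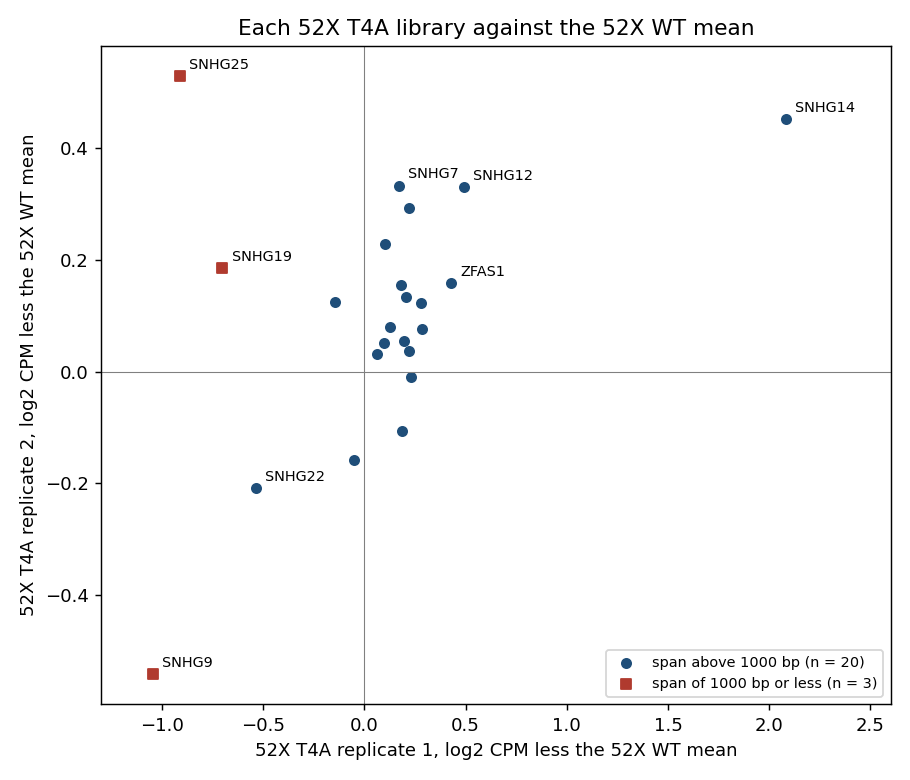
Each tested host by its log2 CPM less the mean of the 52X WT libraries, in 52X T4A replicate 1 (horizontal axis) and in 52X T4A replicate 2 (vertical axis), with the 3 hosts of short span as squares. SNHG19 and SNHG25 lie at the upper left, low in replicate 1 and above 0 in replicate 2, and SNHG14 lies far to the right at 2.08.

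Other genes that hold snoRNAs were set beside these hosts by position. Of 261 tested protein-coding hosts, 78 had both 52X T4A libraries above both 52X WT libraries and 75 had both below, with a median log2 fold change of −0.01. Within them the 28 genes with a ribosomal protein symbol, which include the joined symbol RPL17-C18orf32, had 17 above and 0 below, with a median of 0.08. At an unadjusted edgeR p below 0.05, 4 of the 28 were higher in 52X T4A, against 7.45% of all tested genes. RPS20 and RPS12, proteins of the small ribosomal subunit, had log2 fold changes of 0.32 and 0.31. Of 29 other tested lncRNA hosts, 16 lay above and 3 below, with a median of 0.33. Over all tested genes 24.8% lay above and 24.7% below, and over the tested lncRNA genes 33.1% and 15.4%. Tested genes with a mean count below 100 had a median of 0.25. MEG8, an imprinted lncRNA with C/D box snoRNAs, had 0.179, 0.113, 0.923 and 0.839 CPM, from 7, 5, 31 and 29 counts. None of these genes was called by edgeR.

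**Figure D5:**
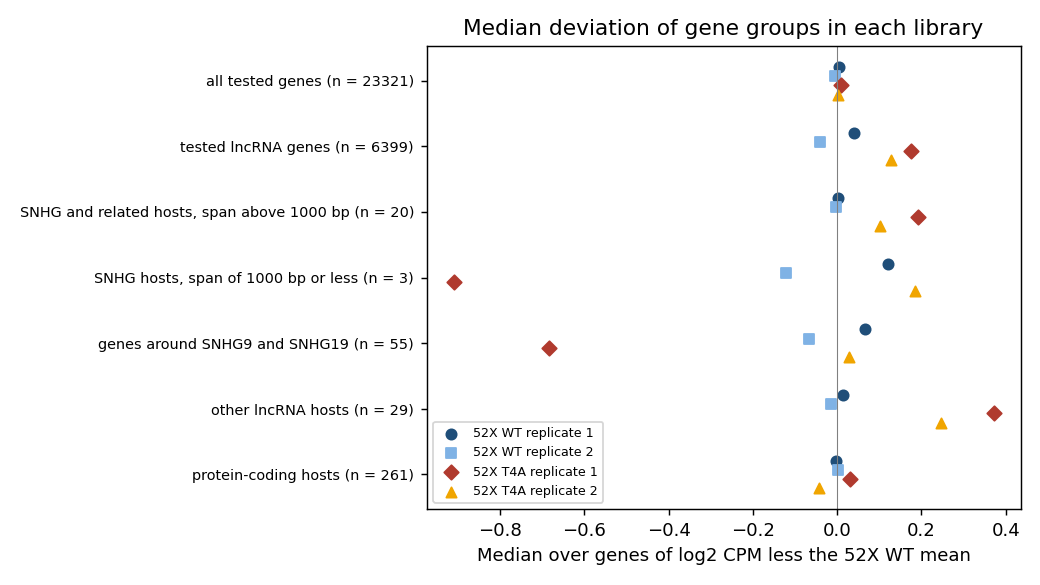
Median over the genes of each group of log2 CPM less the mean of the 52X WT libraries, with 1 point per library. Hosts with a span above 1000 bp lie at 0.19 and 0.10 in the 52X T4A libraries, close to all tested lncRNA genes at 0.18 and 0.13, while hosts of short span and the genes around SNHG9 and SNHG19 lie far to the left in 52X T4A replicate 1 only.

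The genes that make snoRNAs from these transcripts were grouped in lists and tested gene by gene, and edgeR called none of them. The 8 genes of the snoRNP core proteins had a median log2 fold change of 0.00, from −0.12 for NHP2, of the H/ACA box particle, to 0.19 for NOP58, of the C/D box particle. Neither passed an unadjusted p of 0.05. Of the 13 tested genes of snoRNP assembly, 2 lay above and 1 below, with a median of 0.00. For these lists too, the shares over all tested genes were 24.8% above and 24.7% below. The one below was RUVBL1, an ATPase of the assembly complex, with 127 and 115 CPM in 52X WT and 79.5 and 85.9 CPM in 52X T4A, a log2 fold change of −0.55 (SE 0.09, n = 2 and 2, edgeR adjusted p = 0.150). The 52X T4A libraries of RUVBL1 lay close to each other and well under both 52X WT libraries.

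Among the 7 genes listed for the processing of intron-encoded snoRNAs and their ends, 1 lay above and 3 below, with a median of −0.05. The one above was DBR1, which opens the lariats of spliced introns, with 81.1 and 89.7 CPM in 52X WT and 120 and 113 CPM in 52X T4A, a log2 fold change of 0.44 (SE 0.09, n = 2 and 2, edgeR adjusted p = 0.173). PARN and TENT4B, which trim and tail the 3′ ends of H/ACA box RNAs, had log2 fold changes of −0.18 each. Of the 13 tested genes of nonsense-mediated decay, 4 lay above and 3 below, with a median of 0.00. EIF4A3, of the exon junction complex, had 109 and 116 CPM in 52X WT and 151 and 122 CPM in 52X T4A. SMG8 was listed at 0 in all libraries, which says nothing of its transcription if its span lies under another gene. RUVBL1 and DBR1 had the lowest adjusted p of these lists, and neither was called.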

How the data were processed

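TT-seq libraries of RPB1 degron HEK293 cells (2 per condition) were analysed from the table of raw counts that the authors deposited, made with featureCounts from uniquely aligned reads. The submitters' processing notes name cutadapt 4.6, STAR 2.7.11b and GRCh38. The listed length equals the span of each gene, so intronic reads were counted. The strand setting is not given in the sources used here. Symbols and gene types were taken from GENCODE by stable identifier (58742 genes matched), and snoRNA genes also by a reciprocal overlap of at least 50% with RefSeq genes. Sequences are from RefSeq. Counts were tested with edgeR 4.0.16 in R 4.3.3 (TMM, default filter on low counts, quasi-likelihood test, Benjamini-Hochberg adjustment over all genes). Alternatives were DESeq2 1.42.0, other scalings, filters, thresholds and lengths, the replicate number as a block, and omission of each library. Standard errors were derived from the F statistic. Deviations used log2 CPM with a prior count of 2. The script was tested on simulated data. Named were GAS5, ZFAS1, DANCR, EPB41L4A-AS1, the 10 highest hosts, and the 5 with the highest and the 5 with the lowest fold change among those with a mean count of at least 50. Of each other list, up to 2 genes at either end of the fold changes were eligible. The members and lists were chosen with earlier results of these data known. The supplied paper does not describe this experiment.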

Additional observations from a re-analysis of the deposited data

How the results depend on the processing

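With 2 libraries per group, small differences cannot be detected, and reads over overlapping genes of 1 strand are lost. edgeR called 0 hosts with 4 libraries. DESeq2 called 2, scaling to mitochondrially encoded genes 1 (SNHG14), and omission of 1 library 0 to 4. The 4 (SNHG12, SNHG14, SNHG19 and ZFAS1) were called without 52X T4A replicate 2, where 13.8% of all genes were called and the remaining 52X T4A library was assumed to vary like the 52X WT libraries. The median log2 fold change of 0.13 was 0.18 by library size, where the median of all genes was 0.050. By DESeq2 the median over 28 hosts was 0.11, against 0.068 over all genes. Without a filter it was 0.097, again over 28 hosts, against 0.056. When 1 library was omitted, the median of the hosts was 0.065 to 0.16, lowest without 52X WT replicate 2. The 12 hosts above became 6 under mitochondrial scaling, where the share of all genes above fell from 24.8% to 18.6%. With 1 library omitted, fewer libraries must separate, and 34.4% to 41.1% of all genes lay above and 34.5% to 39.8% below. The hosts above then numbered 14 to 17 and those below 3 to 7 of 23 to 25, with 7 without 52X T4A replicate 2 and 5 without 52X T4A replicate 1. The cause of the other shifts was not tested. With the replicate block the median was 0.13 and 0 hosts were called, against 533 of all genes and 1 without the block. Same-numbered libraries did not deviate together (correlation 0.00498), so the numbers were not taken as pairs. Over all genes, calls numbered 867 by DESeq2, 150 without a filter, 195 under mitochondrial scaling, 333 without 52X T4A replicate 1, 3466 without 52X T4A replicate 2, 3 without 52X WT replicate 1 and 0 without 52X WT replicate 2.

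Of the log2 fold changes of the named hosts, 181 kept their direction and side of the threshold, 5 passed it and 12 changed sign. SNHG11 had 0.0011 by relative log expression size factors, 0.0052 with at least 10 counts in every library, 0.050 by library size and −0.16 to 0.13 with 1 library omitted. SNHG25 had 0.024 by library size and −0.99 to 0.54 with 1 library omitted. With 1 library omitted, SNHG29 had −0.0042 to 0.12, SNHG1 −0.10 to 0.17 and SNHG19 −0.72 to 0.19. Membership by an older annotation was not run, since only 1 table pairs the identifiers with symbols.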
